A study of Homo sapiens with 9 samples.

Results

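Genes that shorten the poly(A) tail of messenger RNAs, or lengthen it, were followed in melanoma cells exposed for 2 h to a degrader molecule or to one of its parts. They are 10 of the 62710 genes of the deposited table, chosen by gene name as 3 families: ZFP36, ZFP36L1 and ZFP36L2; BTG1, BTG2, TOB1 and TOB2; and TENT5A, TENT5B and TENT5C. The families were put forward with values of the same 9 libraries already known, so the counts and p-values given for them describe these libraries and are not independent evidence. All 10 passed the filter on low values, which kept 15230 genes whose normalized counts averaged 10 or more across libraries.

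The cells were A375R, a line derived from the A375 human melanoma line that is resistant to the BRAF inhibitor PLX4032 and was grown in medium with PLX4032, which all 3 groups share. One group received the vehicle DMSO, one received 10 µM VHL-r, the moiety that binds the VHL ubiquitin ligase, and one received 10 µM R4VPL3-1, the complete molecule in which a binder of the ubiquitin ligase RNF4 is joined to that moiety. Each group holds 3 biological repeats, and poly(A)-selected RNA was sequenced. The sample labels call the control libraries wild type and give no dose or time for them, the column names of the deposited table give 2 h for 2 of the 3, and the vehicle is taken from the study's methods.

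Messenger RNA lifetime is set largely at the poly(A) tail. ZFP36 proteins bind AU-rich elements and bring in the CCR4-NOT deadenylase complex, and BTG and TOB proteins bind the same complex and speed up tail removal. TENT5 enzymes are non-canonical poly(A) polymerases that add to the tail in the cytoplasm. ZFP36, BTG2 and TOB1 are also known as early response genes, whose own transcripts are short-lived.

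Depth was 26435568 to 32085626 reads per library, as recovered from the deposited normalized counts, with a median of 28165279. The lineage markers MITF, SOX10, DCT, S100B and S100A1 were present, while MLANA was listed at 0 in every library and TYR did not go above 2.14 normalized counts. PMEL was low, at 20.9 to 36.8, and TYRP1 was at 1.07 to 33.6, its highest value being that of R4VPL3-1 replicate 1. Summed over the 9 lineage markers, the level was 22880 to 24659 in DMSO, 13658 to 17018 with VHL-r and 12215 to 14591 with R4VPL3-1, with MITF and SOX10 lower in both. The 9 markers of other cell types summed to 1254 to 1588, 1046 to 1984 and 1178 to 1506, and ALB was listed at 0. Most of that sum came from COL1A1, at 728.5 to 1635 over the libraries, and KRT14, at 224 to 365. KRT14 was lower with R4VPL3-1 than in DMSO (log2 -0.47 ± 0.098 SE, limma adjusted p = 0.00104). What part these shifts had in the results below was not tested. VHL-r replicate 3 had the highest level of its group for 8 of the 10 regulators, and the first principal component of all tested genes held 48.1% of the variance. A lower level per cell and fewer cells holding the transcript cannot be told apart in such bulk samples.

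The promoters of 5 of the genes are shown because these genes carry the results: 4 of them differed between R4VPL3-1 and VHL-r, and TENT5C had the largest change of the 10. RefSeq tables hold a window for 9 of the 10 genes, all but ZFP36L2. Each window has 300 bases of GRCh38.p14, most of them upstream of the RefSeq start site, and is written 5′ to 3′ on the gene's strand. Capitals mark the motif matches described next, whose positions count the start-site base as 0. ZFP36L1 has a further RefSeq start site, whose window, chr14:68796194-68796493, is not shown. That window spans the start of the annotated gene at 68796253, while the ZFP36L1 window shown lies inside the gene. Which start site these cells used was not tested.

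ZFP36, chr19:39406597-39406896, plus strand: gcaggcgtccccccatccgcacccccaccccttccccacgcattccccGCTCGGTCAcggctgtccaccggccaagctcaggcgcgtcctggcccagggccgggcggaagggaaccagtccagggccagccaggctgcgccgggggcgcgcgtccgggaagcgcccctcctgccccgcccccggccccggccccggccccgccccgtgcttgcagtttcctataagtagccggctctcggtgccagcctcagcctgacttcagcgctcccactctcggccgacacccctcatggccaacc
ZFP36L1, chr14:68793367-68793666, minus strand: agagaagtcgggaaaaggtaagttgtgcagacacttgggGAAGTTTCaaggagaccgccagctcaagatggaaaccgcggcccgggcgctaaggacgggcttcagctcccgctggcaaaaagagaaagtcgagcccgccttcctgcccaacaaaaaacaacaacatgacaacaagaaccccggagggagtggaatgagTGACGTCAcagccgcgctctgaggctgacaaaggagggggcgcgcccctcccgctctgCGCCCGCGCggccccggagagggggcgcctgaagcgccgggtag
BTG2, chr1:203305269-203305568, plus strand: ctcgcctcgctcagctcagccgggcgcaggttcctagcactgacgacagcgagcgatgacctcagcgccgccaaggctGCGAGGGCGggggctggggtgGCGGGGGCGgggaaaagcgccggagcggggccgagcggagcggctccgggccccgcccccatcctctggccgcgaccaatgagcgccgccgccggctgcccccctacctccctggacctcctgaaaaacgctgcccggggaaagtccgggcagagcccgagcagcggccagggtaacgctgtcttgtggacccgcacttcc
TENT5B, chr1:27012801-27013100, minus strand: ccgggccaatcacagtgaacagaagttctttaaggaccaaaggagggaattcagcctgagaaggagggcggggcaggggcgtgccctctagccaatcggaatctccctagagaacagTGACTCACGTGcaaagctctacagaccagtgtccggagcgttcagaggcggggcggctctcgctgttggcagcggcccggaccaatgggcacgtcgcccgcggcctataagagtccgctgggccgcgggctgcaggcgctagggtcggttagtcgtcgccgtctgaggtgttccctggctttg
TENT5C, chr1:117605798-117606097, plus strand: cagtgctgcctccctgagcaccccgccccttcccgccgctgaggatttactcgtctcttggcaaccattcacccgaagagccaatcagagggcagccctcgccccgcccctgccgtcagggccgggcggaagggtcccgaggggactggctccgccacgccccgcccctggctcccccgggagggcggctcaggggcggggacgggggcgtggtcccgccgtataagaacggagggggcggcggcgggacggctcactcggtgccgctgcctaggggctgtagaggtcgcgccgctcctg

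Motifs were searched on both strands, and the share of 35116 RefSeq promoter windows of the same length with at least 1 match is given for each. The EGR motif GCGNGGGCG is present in 9.43% of windows and occurs at 2 places in the BTG2 window, from positions -172 and -151, and once in the ZFP36L1 window, from position 6. ZFP36L1 also holds the cyclic AMP response element TGACGTCA, found in 1.85% of windows, and the heat shock motif GAANNTTC, found in 6.77%. TENT5B holds the AP-1 motif TGANTCA, found in 7.71% of windows, and the E-box CACGTG, found in 7.26%, and these 2 matches overlap. ZFP36 holds the antioxidant response core TGACNNNGC on the opposite strand, a motif found in 13.3% of windows. Among the windows not shown, TATAAA, found in 11.5%, occurs in BTG1 and TENT5A, and TGACNNNGC occurs in TOB2 and the other ZFP36L1 window. The TENT5C window held none of these letters, and the CArG box, found by its name's pattern in 1.29% of windows, matched none of the 9 genes.

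Most of the 10 genes differed from DMSO with each compound, some higher and some lower. With VHL-r, 6 of the 10 were higher than in DMSO and 2 were lower at a limma adjusted p no greater than 0.05, where 10.3% of all tested genes were higher and 9.51% lower. With R4VPL3-1, 6 were higher and 3 lower than in DMSO, against 13.1% and 11.8% of all genes. Both comparisons use the same DMSO libraries. Between the compounds themselves, R4VPL3-1 against VHL-r, 2 were higher (ZFP36 and BTG2) and 3 lower (ZFP36L1, ZFP36L2 and TENT5B), against 1.14% and 0.729% of all genes. The median log2 change of the 10 was 0.55, 0.48 and -0.14 in these 3 comparisons, beside -0.0045, -0.0063 and -0.0056 over all tested genes. The count between the compounds rests on few libraries: it fell from 5 to 3 without VHL-r replicate 2 or without R4VPL3-1 replicate 1, and the 2 higher genes became 1 without replicate 1 or replicate 2 of either compound.

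The ZFP36 family split. ZFP36, also called tristetraprolin, is the founding member, and it rose with both compounds. Its normalized counts were 625, 538 and 578 in the 3 DMSO libraries, 1047, 1055 and 1209 with VHL-r, and 2066, 1951 and 1572 with R4VPL3-1. The 3 groups did not overlap, and R4VPL3-1 replicate 3 was the lowest of its group. Against DMSO the level was 1.90-fold with VHL-r (log2 change 0.93 ± 0.086 SE, n = 3 and 3, limma adjusted p = 1.03e-07) and 3.19-fold with R4VPL3-1 (1.67 ± 0.086, adjusted p = 6.89e-12). R4VPL3-1 was 1.68-fold above VHL-r (95% interval 1.48 to 1.90, limma adjusted p = 1.14e-05). That difference was the 187th in size of the 15230 tested genes.

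ZFP36L1, a paralog with the same type of zinc fingers, fell. It stood at 1822, 1700.1 and 1773 in DMSO, at 1088, 1157 and 1341 with VHL-r, and at 908, 1001 and 979.6 with R4VPL3-1. Each treated library lay below each DMSO library. The log2 change against DMSO was -0.57 ± 0.069 (SE; limma adjusted p = 3.64e-06) for VHL-r and -0.87 ± 0.069 (adjusted p = 4.95e-09) for R4VPL3-1. Between the compounds it was -0.31 ± 0.069 (limma adjusted p = 0.0173), with groups that did not overlap, but the call was lost without VHL-r replicate 2 (adjusted p = 0.0515), without VHL-r replicate 3 (0.123) or without R4VPL3-1 replicate 1 (0.122). Of its exon bases, 7.92% are shared with exons of a neighbour of the same orientation, where the counting leaves reads unassigned.

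ZFP36L2, the most abundant of the 3, fell by less. The 3 DMSO libraries gave 5717, 4822 and 4828 normalized counts, the VHL-r libraries 4230.0, 4204 and 4241, and the R4VPL3-1 libraries 3488, 3519.95 and 3246. The VHL-r libraries were close together, with an SD of 19.2 around a mean of 4225, and the groups were again separate. Against DMSO the log2 change was -0.27 ± 0.057 for VHL-r (limma adjusted p = 0.00139) and -0.58 ± 0.057 for R4VPL3-1 (adjusted p = 1.26e-07), and between the compounds -0.31 ± 0.057 (adjusted p = 0.0028).

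Seen per kilobase of exon, the opposite changes altered the make-up of the family more than its sum. The summed level of the 3 genes was 1954 ± 167 normalized counts per kilobase in DMSO, 1887 ± 69.5 with VHL-r and 2017 ± 167 with R4VPL3-1 (SD, n = 3 each), with ranges that overlapped. ZFP36 made up 15.0% ± 0.49 of that sum in DMSO, 29.6% ± 1.3 with VHL-r and 46.6% ± 2.8 with R4VPL3-1. ZFP36L2 went the other way, from 70.9% ± 1.2 to 60.7% ± 2.0 and 46.0% ± 2.0. On this measure ZFP36L1 had the smallest mean share in each group, at 14% ± 0.78, 9.78% ± 0.71 and 7.42% ± 0.86. The shares depend on the length of all annotated exons, 6466 bases for ZFP36L1 and 1976 for ZFP36. In DMSO the levels per kilobase of these 2 genes overlapped. In the R4VPL3-1 libraries the levels of ZFP36 (795 to 1046 per kilobase) and ZFP36L2 (879 to 953) overlapped, whereas in DMSO ZFP36L2 was at 1306 or more and ZFP36 at 316 or less.

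**Figure D1:**
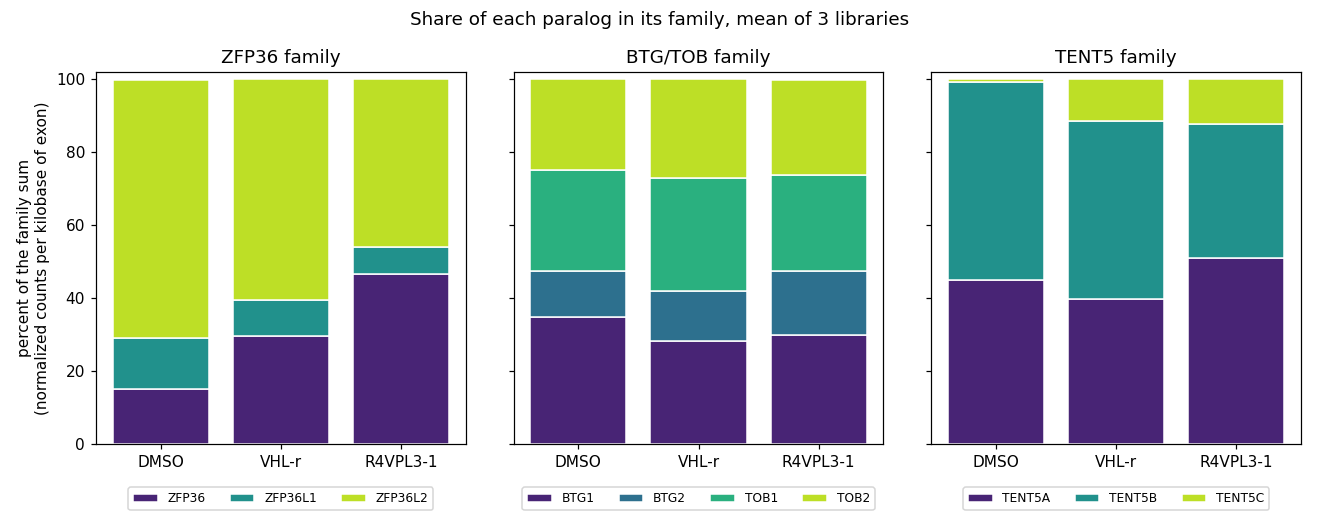
Share of each gene (vertical axis, percent) in the summed normalized counts per kilobase of exon of its family, as the mean of 3 libraries for each treatment. ZFP36 goes from 15.0% to 46.6% of its family, TENT5C from 0.894% to 12.2%, and the BTG and TOB shares move by less.

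The BTG and TOB genes rose together, all 4 of them with both compounds. BTG1, an antiproliferative protein first found at a chromosomal breakpoint in leukemia, changed least. Its values were 2004, 2239 and 2299 in DMSO, 2789.99, 2622 and 2819.7 with VHL-r, and 3004, 2923 and 2683 with R4VPL3-1. All treated libraries were above all DMSO libraries, and those of the 2 compounds overlapped. The log2 change was 0.33 ± 0.058 for VHL-r (limma adjusted p = 0.000225) and 0.40 ± 0.058 for R4VPL3-1 (adjusted p = 2.33e-05). Between the compounds it was 0.06, with a 95% interval of -0.06 to 0.18 (adjusted p = 0.844). Of the exon bases of BTG1, 10.4% are shared in the same way, LINC01619 being a neighbour.

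BTG2, a target of p53 and of growth signals, was the one of the 4 that was called between the compounds. Its normalized counts rose from 419, 459 and 479 in DMSO to 746, 738 and 818 with VHL-r and to 973, 941 and 932 with R4VPL3-1. The groups stood apart, and the R4VPL3-1 libraries were the closest together, with an SD of 21.3. Against DMSO the level was 1.70-fold for VHL-r (log2 0.76 ± 0.070 SE, limma adjusted p = 8.52e-08) and 2.10-fold for R4VPL3-1 (1.07 ± 0.070, adjusted p = 2.99e-10). R4VPL3-1 exceeded VHL-r by 1.24-fold (95% interval 1.12 to 1.37, limma adjusted p = 0.0204). This call was lost without VHL-r replicate 1 (adjusted p = 0.0815) or 2 (0.15), and without R4VPL3-1 replicate 1 (0.12) or 2 (0.0712).

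TOB1 and TOB2, the larger proteins of the family, which also bind the poly(A)-binding protein, had their higher means with VHL-r. TOB1 was at 911, 805 and 969 in DMSO, at 1513, 1497 and 1706 with VHL-r, and at 1277, 1299 and 1387 with R4VPL3-1. These 3 groups did not overlap. The log2 change was 0.81 ± 0.070 for VHL-r (limma adjusted p = 3.09e-08) and 0.56 ± 0.070 for R4VPL3-1 (adjusted p = 3.05e-06). The difference between the compounds, -0.25 with a 95% interval of -0.39 to -0.10, missed the threshold (limma adjusted p = 0.0815) and passed it when only the 6 libraries compared were fitted (0.0446) or with DESeq2 on the recovered reads (0.0399).

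TOB2 gave 1393, 1364 and 1435 in DMSO, 2229, 2246 and 2699.8 with VHL-r, and 2164, 2182 and 2379 with R4VPL3-1. VHL-r replicate 3 was far above the other 2 of its group, and the compounds overlapped. The log2 change was 0.77 ± 0.065 for VHL-r (limma adjusted p = 2.35e-08) and 0.68 ± 0.065 for R4VPL3-1 (adjusted p = 8.59e-08). Between them it was -0.09 (95% interval -0.22 to 0.05, adjusted p = 0.771).

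Unlike the ZFP36 family, the BTG and TOB genes gained in sum, from 1290 ± 62.9 normalized counts per kilobase in DMSO to 2018 ± 139 with VHL-r and 1976 ± 13.9 with R4VPL3-1 (SD, n = 3 each). The lowest treated library was at 1919 and the highest DMSO library at 1362. Among the shares, that of BTG2 was 12.7% ± 0.52, 13.8% ± 0.16 and 17.4% ± 0.42, and that of BTG1 34.8% ± 1.7, 28.1% ± 1.3 and 29.9% ± 1.9. Their relative BTG3, outside the 10, fell: its means were 1079, 895 and 933, with log2 changes of -0.27 ± 0.061 (limma adjusted p = 0.0028) and -0.21 ± 0.061 (adjusted p = 0.0138) against DMSO. BTG4, a relative known from oocytes, was at 2.00 normalized counts or less in every library and was not tested.

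The TENT5 polymerases each followed a course of their own. TENT5C, known as a tumor suppressor in multiple myeloma, had the largest change of the 10 genes. DMSO libraries held 16.4, 12.8 and 14.2 normalized counts, which stand for 18, 13 and 14 reads, VHL-r libraries 185, 176 and 194, and R4VPL3-1 libraries 164, 151 and 171. Every treated library was at least 151, and the VHL-r libraries lay above the R4VPL3-1 libraries. The DMSO reads sum to 45, with an exact Poisson 95% interval of 32.8 to 60.2 that covers counting error only. On the log2(value + 1) scale, which understates the change of a low gene, the rise was 3.60 ± 0.16 for VHL-r (limma adjusted p = 1.31e-12) and 3.41 ± 0.16 for R4VPL3-1 (adjusted p = 9.51e-13). By size these were the 2nd and the 10th of the 15230 changes against DMSO. The mean with VHL-r was 1281% of the DMSO mean, and that with R4VPL3-1 was 1123% of it. Between the compounds the log2 difference was -0.19, with a 95% interval of -0.51 to 0.13 (limma adjusted p = 0.819).

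TENT5B was lower with R4VPL3-1. It was measured at 419, 331 and 358 in DMSO, at 304, 349.8 and 347 with VHL-r, and at 184, 222 and 209.8 with R4VPL3-1. DMSO and VHL-r overlapped, and R4VPL3-1 lay below both. VHL-r differed from DMSO by -0.14 on the log2 scale (95% interval -0.36 to 0.08, limma adjusted p = 0.414). R4VPL3-1 differed from DMSO by -0.84 ± 0.11 (adjusted p = 3.94e-06) and from VHL-r by -0.70 ± 0.11 (adjusted p = 0.000344). The last was the 245th in size among the 15230 genes.

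TENT5A passed the test in no comparison. Its libraries were at 767, 778 and 771 in DMSO, at 734, 669 and 669 with VHL-r, and at 808, 726 and 649.8 with R4VPL3-1. The DMSO libraries varied least (SD 5.59) and the R4VPL3-1 libraries most (SD 78.9). The log2 difference was -0.16 for VHL-r against DMSO (95% interval -0.32 to -0.01, not adjusted, limma adjusted p = 0.149), though the groups did not overlap. For R4VPL3-1 it was -0.09 against DMSO (-0.25 to 0.07, adjusted p = 0.432) and 0.07 against VHL-r (-0.09 to 0.23, adjusted p = 0.881).

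The sum of the 3 TENT5 genes was 285.0 ± 18.4 normalized counts per kilobase in DMSO, 286.9 ± 4.66 with VHL-r and 235 ± 8.12 with R4VPL3-1 (SD, n = 3 each). TENT5C rose from 0.894% ± 0.054 of it to 11.4% ± 0.52 and 12.2% ± 1.1, and TENT5B went from 54.2% ± 3.1 to 48.8% ± 3.0 and 36.7% ± 3.9. Even after its rise TENT5C stayed the lowest of all 10 genes per kilobase, at 32.7 ± 1.51 with VHL-r and 28.7 ± 1.80 with R4VPL3-1, against 2.56 ± 0.32 in DMSO. The fourth TENT5 gene, TENT5D, did not exceed 5.00 normalized counts in any library and was not tested.

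**Figure D2:**
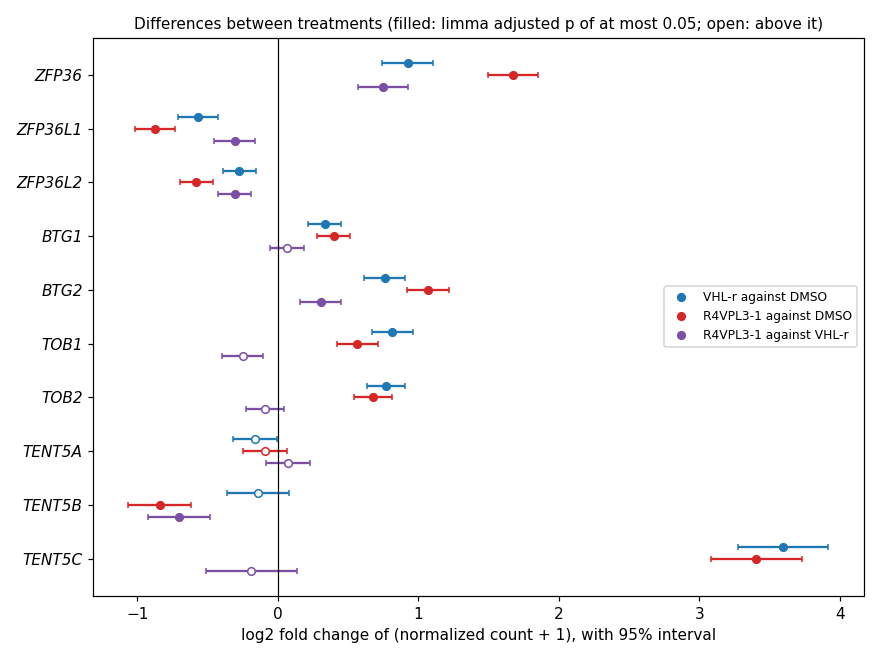
Log2 fold change of the normalized count + 1 (horizontal axis) with its unadjusted 95% interval for the 10 genes in the 3 comparisons; filled points passed an adjusted p of 0.05 in limma and open points did not. TENT5C stands at 3.60 and 3.41 against DMSO, ZFP36 is the one gene above 0.70 between the compounds, and TENT5B is at -0.70.

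Ordered by level per kilobase, ZFP36L2 led in DMSO at 1387 ± 139, followed by BTG1 at 449 ± 32.1. TOB1 (355 ± 33.1), TOB2 (322 ± 8.25), ZFP36 (294 ± 21.9) and ZFP36L1 (273 ± 9.52) came next, each with a range that overlapped that of its neighbour. BTG2 (164 ± 11.1) and TENT5B (155 ± 18.9) overlapped too, and TENT5A (128 ± 0.92) and TENT5C lay below. With VHL-r, TOB1 had the second highest mean at 624 ± 46.2. BTG1 at 565 ± 22, ZFP36 at 558 ± 46.2 and TOB2 at 551 ± 61.6 followed, and these last 3 overlapped. The lowest TOB1 library, at 593.8, was above all BTG1 values (up to 580.8). It was below the highest values of ZFP36 (611.6) and TOB2 (621.9), so TOB1 overlapped those 2 genes. With R4VPL3-1, ZFP36 at 943 ± 131 and ZFP36L2 at 926 ± 40.5 were level within their spread, and BTG1 followed at 591 ± 34.4. TENT5B, at 86.2 ± 8.13, was there below TENT5A at 120.3 ± 13, with no overlap.

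Enzymes and cofactors of RNA decay and tailing, nuclear and mitochondrial ones included, were followed in 5 lists with 50 tested genes. Of these, 9 were higher (18%) and 2 lower (4%) with VHL-r against DMSO, where 10.3% and 9.51% of all tested genes were, and 10 were higher (20%) and 3 lower (6%) with R4VPL3-1, where 13.1% and 11.8% were. Of the 12 genes listed as CCR4-NOT subunits, 2 were higher (16.7%) and 1 lower (8.33%) with each compound against DMSO. Between the compounds the 12 log2 differences lay from -0.15 to 0.12. CNOT4, a ubiquitin ligase, had mean normalized counts of 827 in DMSO, 1008 with VHL-r and 1053 with R4VPL3-1. Its log2 change was 0.28 ± 0.061 (limma adjusted p = 0.00176) and 0.35 ± 0.061 (adjusted p = 0.000187). CNOT8, a catalytic subunit, rose by 0.17 ± 0.057 (adjusted p = 0.0437) and 0.24 ± 0.057 (adjusted p = 0.00335), and CNOT6L, another catalytic subunit, was lower with VHL-r by -0.25 ± 0.077 (adjusted p = 0.0236). The median over the 12 was 0.017, -0.033 and 0.0024 in the 3 comparisons.

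Among 7 other genes listed as deadenylases, NOCT rose with both compounds, by 0.37 ± 0.067 (limma adjusted p = 0.000391) and 0.39 ± 0.067 (adjusted p = 0.000155). PDE12, a mitochondrial deadenylase, was at 2377, 2339.6 and 2361 in DMSO, 2254, 2341 and 2221 with VHL-r and 1956, 1956 and 1973 with R4VPL3-1. It was lower with R4VPL3-1 than with VHL-r by -0.21 ± 0.046 (adjusted p = 0.0137). Of 16 decapping and 5′ decay genes, 2 (12.5%) were higher with each compound against DMSO. That is near the share of all tested genes, 10.3% with VHL-r and 13.1% with R4VPL3-1. The 2 were the decapping enzyme DCP2 and its cofactor DCP1A, higher by 0.25 to 0.26, and the other 14 did not pass the test.

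Of the 9 poly(A)-binding proteins and their partners, 7 were tested. PAIP2B, an inhibitor of the poly(A)-binding protein, rose from a mean of 15.2 to 28.6 with VHL-r and 37.6 with R4VPL3-1 (log2 0.86 ± 0.25, limma adjusted p = 0.0173, and 1.25 ± 0.25, adjusted p = 0.000675). PABPC4, itself a cytoplasmic poly(A)-binding protein, rose by 0.16 ± 0.045 with both (adjusted p = 0.0134 and 0.0103), and PAIP2 by 0.14 ± 0.045 with R4VPL3-1 (adjusted p = 0.0246). Among the 8 tested polymerases outside the TENT5 family, the non-canonical TENT4B rose by 0.38 ± 0.059 and 0.35 ± 0.059 (adjusted p = 6.25e-05 and 0.000118). The nuclear poly(A) polymerase PAPOLG rose by 0.36 ± 0.064 and 0.27 ± 0.064 (adjusted p = 0.000331 and 0.00372), and the mitochondrial polymerase MTPAP fell by 0.21 and 0.27 on the log2 scale (adjusted p = 0.0178 and 0.00284). Between the compounds the log2 differences of the tested genes lay from -0.09 to 0.39 in the first of these lists and from -0.11 to 0.06 in the second.

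Other RNA-binding regulators of stability were called in both directions, 4 higher (19%) and 3 lower (14.3%) of 21 tested with VHL-r, beside 10.3% and 9.51% of all tested genes. With R4VPL3-1, 5 were higher (23.8%) and 6 lower (28.6%), beside 13.1% and 11.8%. The medians were 0.028 and 0.0013. ZC3HAV1, the antiviral protein ZAP, was at 2327, 2141 and 2509.8 in DMSO, at 3709.7, 3147 and 3418 with VHL-r and at 2779, 2637 and 2795 with R4VPL3-1, and it was the 1 gene of the list called between the compounds (log2 -0.32 ± 0.062, limma adjusted p = 0.00403). ZC3H12A, the endonuclease regnase-1, was higher with R4VPL3-1 than in DMSO by 0.50 ± 0.14 (adjusted p = 0.0113), and the translational repressor NANOS1 was lower by -0.44 ± 0.12 (adjusted p = 0.007).

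**Figure D3:**
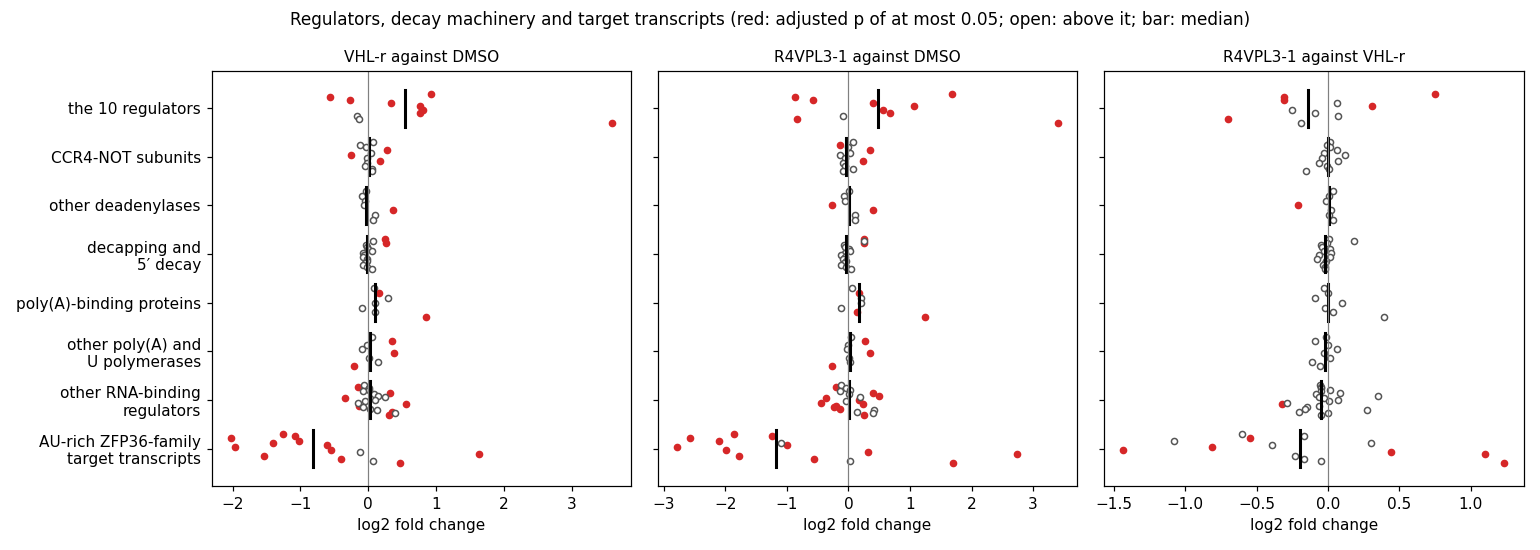
Log2 fold change (horizontal axes, of different width) of each tested gene of the regulator families, the decay and tailing machinery and transcripts known to carry AU-rich elements, in the 3 comparisons; red points passed an adjusted p of 0.05 in limma, open points did not, and a bar marks each list's median. The 5 machinery lists lie within -0.27 to 1.25, and the AU-rich transcripts reach from -2.79 to 2.74.

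Transcripts with AU-rich elements that are known as targets of the ZFP36 family spread over a wide range. The list, like the others, was written with earlier results of these data known, so its counts are not independent evidence. Of 18 listed, 14 were tested. With VHL-r, 2 were higher (14.3%) and 10 lower (71.4%) than in DMSO, beside 10.3% and 9.51% of all tested genes, with a median log2 change of -0.81. With R4VPL3-1, 3 were higher (21.4%) and 9 lower (64.3%), beside 13.1% and 11.8%, with a median of -1.17. Between the compounds, 3 were higher and 3 lower (21.4% each), beside 1.14% and 0.729%, with a median of -0.20. The medians over all tested genes were near 0, as given for the 10 regulators.

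LIF, CXCL1 and IER3 of this list fell with both compounds. LIF, a cytokine of the interleukin 6 family, was at 5051, 3526 and 2958 in DMSO, 1017, 1117 and 767 with VHL-r and 476, 638 and 525 with R4VPL3-1. CXCL1, a chemokine, was at 1965, 1953 and 1769, then 477, 455 and 458, and then 285, 306 and 366. IER3, an early response gene, was at 4793, 3845 and 4039, then 2755, 2912 and 2930.3, and then 947, 1176 and 1066. No library of 1 group overlapped another group in these 3 genes, and in each the R4VPL3-1 libraries were the lowest. Between the compounds the log2 differences were -0.82 ± 0.15 for LIF, -0.54 ± 0.082 for CXCL1 and -1.44 ± 0.075 for IER3 (limma adjusted p = 0.00213, 0.000344 and 5.06e-11).

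Against this, FOS, DUSP1 and VEGFA were higher with R4VPL3-1 than with VHL-r. FOS, a subunit of AP-1, rose from 161, 122 and 191 in DMSO to 423, 473 and 573 with VHL-r and to 1251, 1145 and 792 with R4VPL3-1, a difference of 1.10 ± 0.15 between the compounds (limma adjusted p = 0.000132). DUSP1, a phosphatase of MAP kinases, was at 314, 339 and 366, then 416, 478 and 521, and then 1277, 1152 and 924, a difference of 1.24 ± 0.10 (adjusted p = 1.06e-07). VEGFA, the angiogenic growth factor, was at 1758, 1732 and 1623 in DMSO, 1519, 1558 and 1609 with VHL-r and 2298, 2104 and 1975 with R4VPL3-1, a difference of 0.44 ± 0.058 (adjusted p = 6.14e-05). As with ZFP36, R4VPL3-1 replicate 3 was the lowest of its group in all 3 of these genes.

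For each of the 10 genes, the tested genes with the most similar course over the 9 libraries were found by Pearson's r of log2(value + 1), as a description in which the 3 treatments set most of the likeness. ZFP36 was nearest to SNHG7 (0.994), FOS (0.993) and TNFSF9 (0.990), ZFP36L1 to CCL2 (0.993), FZD2 and PHLDB1, and ZFP36L2 to CCN2 (0.986), CCN1 (0.980) and ZNF860. BTG1 was nearest to FGF18 (0.986), LINC01618 and PPP6R2, and BTG2 to SESN2 (0.998), HERPUD1 (0.995) and TXNIP (0.993). TOB1 was nearest to ID2 (0.986), FAM83D and KIF5A, and TOB2 to PCF11 (0.993) and DTX4. For the TENT5 genes the nearest were CNNM4 (0.998), WDR47 (0.997) and RYBP (0.995) for TENT5C, EGR3 (0.990), MIDEAS (0.979) and IER3 (0.976) for TENT5B, and CEP152 (0.950), DDX12P and 1 gene without a symbol for TENT5A.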

How the data were processed

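The authors deposited normalized counts of 62710 genes, a signal of reads per gene divided by the library's DESeq2 (1.36.0) size factor, with 2 decimals. Per their methods, STAR placed the strand-specific single 100-base reads on GRCh38 and htseq-count, in reverse mode, assigned them to genes. Values above 0 came out as whole reads within 0.1 in 100% of cases, and no value column was left unused. Because the values are normalized, limma (3.58.1, R 4.3.3) with its trend option was run on log2(value + 1) for 15230 genes averaging 10 or more, in 1 single-factor model of the 9 libraries, with Benjamini-Hochberg adjustment over those genes. With 3 biological repeats per group, p-values measure the spread between these repeats. The fit was tested on simulated data.

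The 10 members and the lists were chosen with earlier results of these data known. All members are named. From the lists, genes called between the compounds and up to 3 with the largest change among those called against DMSO are named. Marker genes are given as ranges. MITF, SOX10, DCT, S100B, S100A1, MLANA, TYR, PMEL, TYRP1, ALB, COL1A1 and KRT14 are an exception, named after their values were seen. For each member the 3 genes of most similar course are named, except 1 that is not reported here. Exon lengths and overlaps come from GENCODE 44, whose start and end match the deposited ones for all 10 genes, and promoters from RefSeq tables of GRCh38.p14. Figures were drawn with matplotlib. Alternatives were other pseudocounts (0.1, 5), other filters (none, mean of 50), TMM or upper-quartile rescaling, a robust fit, a block for replicate number, count tests on recovered reads with edgeR (4.0.16) or DESeq2 (1.42.0), a fit of just the 6 libraries of a comparison, a threshold of 0.01, and each library omitted in turn.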

Additional observations from a re-analysis of the deposited data

How the results depend on the processing

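Of the values for the 10 genes under the alternatives, 616 kept their direction and their side of the threshold, 9 lost a call, 3 gained one and 2 turned sign, all in R4VPL3-1 against VHL-r. The 2 that turned sign were not called: with 1 library left out, TOB2 ranged from -0.1368 to 0.0015 on the log2 scale (the latter without VHL-r replicate 3) and TENT5A from -0.0059 (without R4VPL3-1 replicate 1) to 0.1507. At an adjusted p of at most 0.01, the genes called in all fell from 3016 to 1885 for VHL-r and from 3792 to 2494 for R4VPL3-1 against DMSO, and the regulators called between the compounds fell from 5 to 3, with 1 higher. With 1 library left out, these were 3 to 5 regulators, of which 1 to 2 higher, and 182 to 358 of all genes, where all libraries gave 285. The 182 came without R4VPL3-1 replicate 1. The 8 calls with VHL-r and 9 with R4VPL3-1 against DMSO were kept in number under every alternative run. Same-numbered libraries correlated by -0.006 to 0.121 in their deviations, and libraries with other numbers by -0.148 to 0.098. The third principal component of all tested genes, with 9.11% of the variance, set replicate 3 apart. It was at 16.2 in DMSO, 10.3 with VHL-r and 14.1 with R4VPL3-1, and replicates 1 and 2 were at -12.6 to -2.5. These values do not decide whether the numbers pair the libraries, and the main fit used no pairing. With the replicate block, 6 regulators were called between the compounds, TOB1 being added (adjusted p = 0.0118), and 3451, 4241 and 389 genes in all in the 3 comparisons. Rescaling moved the median of all genes by at most 0.018. Depth limits mainly TENT5C in DMSO, at 13 to 18 reads.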
